A study of Mus musculus with 45 samples.

Results

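The fibroblast growth factor (FGF) genes described here were the 33 of 11220 listed genes whose symbols name an FGF, an FGF receptor, a sprouty or Spred protein, or 1 of a fixed set of ERK feedback genes. They were chosen by symbol, with no measured value. By role they were 12 secreted ligands (Fgf1, Fgf3, Fgf4, Fgf5, Fgf7, Fgf8, Fgf9, Fgf10, Fgf15, Fgf17, Fgf18 and Fgf22), 4 intracellular FGF homologous factors (Fgf11, Fgf12, Fgf13 and Fgf14) and 5 receptors (Fgfr1, Fgfr2, Fgfr3, Fgfr4 and Fgfrl1). The feedback genes were 5 sprouty and Spred genes (Spry1, Spry2, Spry4, Spred1 and Spred3), 3 dual specificity phosphatases (Dusp4, Dusp5 and Dusp6), 3 ETS transcription factors (Etv1, Etv4 and Etv5) and Phlda1. Another 7 mouse symbols match (Fgf2, Fgf6, Fgf16, Fgf20, Fgf21, Fgf23 and Spred2) and were not analysed here. All 33 passed the filter on low levels. The listed genes are those the authors gave as significant at a false discovery rate of 0.1, with rates deposited for comparisons among treated groups. Being listed is therefore itself a selection on these data.

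RNA was measured in bulk in 45 libraries of mouse embryonic stem cells (mESCs) driven toward spinal sensory interneurons, 3 libraries in each of 15 groups, from 3 independent differentiations. D0 was untreated mESCs, and D3 was the day 3 neuromesodermal progenitor stage, after bFGF (an FGF ligand) and CHIR (a WNT pathway activator) during the first 2 days. All later groups carried that FGF exposure too, and then received 100 nM retinoic acid (RA), alone or with 10 ng/ml BMP4, from day 3 to day 5. In the R groups (R4, R6hr, R5, R7 and R9) RA was given alone. In the B groups (B6hr, B5, B7 and B9) BMP4 joined RA for the second 24 h, and in the M groups (M4, M5, M7 and M9) both were present together from day 3, for 48 h in full. Groups sampled before day 5 had part of this course. RA had lasted 24 h in R4 and M4 and 30 h in R6hr and B6hr, and BMP4 24 h in M4 and 6 h in B6hr. The number in each name is the day of sampling, and R6hr and B6hr were taken 6 h into the second 24 h. M and B therefore differ in the length and in the start of BMP4. Endogenous and added FGF are not told apart by these measurements, and protein was not measured. In bulk RNA, fewer cells of a type and less RNA per cell cannot be told apart.

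FGF ligands bind receptor tyrosine kinases together with heparan sulfate, and the active receptor signals through RAS and the kinase cascade that ends in ERK. ERK raises transcription of sprouty, Spred and dual specificity phosphatase genes, whose products damp the same cascade, and of the ETS factors Etv4 and Etv5, so these transcripts are widely read as a gauge of pathway activity. In the caudal embryo, Fgf8 and WNT ligands maintain the progenitors of cord and somites, RA opposes Fgf8, and BMP from the dorsal midline patterns the dorsal neural tube. In mESCs, Fgf4 is the main endogenous ligand and ERK activity favours exit from pluripotency.

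Capicua (CIC), a repressor that ERK inactivates, binds an octamer at several of these feedback genes, and ETS factors bind a GGAA core, so both were looked for in the 250 bases before each annotated start. RefSeq windows on GRCm38.p6 were available for 24 of the 33 genes, 33 windows in all. The octamer was searched as TGAATGAA, TGAATGGA, TGAATGGG or TGAATGAG and the ETS core as CCGGAAG, on both strands; the forms after the first were added once the Etv5 window had been seen. At least 1 octamer stood in 3 member windows (Etv5, Spred3 and Dusp5) and in 3.86% of all 32851 windows, and the ETS core in 1 (Fgfrl1) and in 6.91% of all. The Etv5 window held 3 octamers, as did 14 of all windows (0.0426%), beginning 242, 198 and 131 bases before the start. That of Spred3 began 10 bases before it, and the ETS core of Fgfrl1 48 bases before it. All 3 octamers of Etv5 were TGAATGGG, a form added after that window was seen, so the 0.0426% is no measure of its rarity. The first form, TGAATGAA, matched Spred3 alone among the member windows. The windows below are printed because Etv5 and Spred3 carry the octamers, Fgfrl1 carries the core, and Dusp6 carries neither. Capitals mark the matched letters. The Etv5 window is chr16:22438369-22438618 on the minus strand, that of Spred3 chr7:29168648-29168897 on the minus strand and that of Fgfrl1 chr5:108693979-108694228 on the plus strand. These 3 lie within their genes, upstream of an internal annotated start, and overlap no annotated exon. The Dusp6 window, chr10:99262981-99263230 on the plus strand, adjoins the gene's start. The Dusp5 window overlaps an annotated exon and is not shown. A match is a description of letters only, and none of these windows was tested for binding here.
Etv5: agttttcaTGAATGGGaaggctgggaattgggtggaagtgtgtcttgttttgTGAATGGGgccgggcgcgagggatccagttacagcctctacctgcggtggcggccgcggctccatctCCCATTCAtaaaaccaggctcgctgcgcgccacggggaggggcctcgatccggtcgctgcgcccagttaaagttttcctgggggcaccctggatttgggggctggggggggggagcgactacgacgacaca
Spred3: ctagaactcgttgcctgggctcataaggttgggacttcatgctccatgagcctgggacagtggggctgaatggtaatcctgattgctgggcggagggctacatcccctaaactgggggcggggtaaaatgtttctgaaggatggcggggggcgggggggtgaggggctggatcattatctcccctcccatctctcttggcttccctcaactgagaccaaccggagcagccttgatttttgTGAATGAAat
Fgfrl1: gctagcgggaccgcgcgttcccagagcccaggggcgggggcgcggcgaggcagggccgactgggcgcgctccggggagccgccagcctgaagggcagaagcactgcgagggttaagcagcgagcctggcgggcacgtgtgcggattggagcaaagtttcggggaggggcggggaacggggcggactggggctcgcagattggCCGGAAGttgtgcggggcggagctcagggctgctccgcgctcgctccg
Dusp6: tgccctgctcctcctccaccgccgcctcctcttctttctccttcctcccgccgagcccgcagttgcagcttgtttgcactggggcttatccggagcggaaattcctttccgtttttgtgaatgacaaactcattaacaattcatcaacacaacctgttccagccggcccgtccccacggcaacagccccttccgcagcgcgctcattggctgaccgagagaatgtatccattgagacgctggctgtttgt

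Values below are the deposited normalized levels, whose unit and scaling are not stated. They were taken to be comparable between libraries for 1 gene, which is an assumption, and levels are not compared between genes. A log2 change is the difference of mean log2(level + 1) between 2 groups, which understates the change of low genes. A gene rose or fell only where limma's adjusted p, taken over all 11220 listed genes, was under 0.05. The summed levels of the listed genes ran from 12245725 to 15868724 per library and the read depth is unknown.

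Several libraries stood apart from their group. The third D0 library had the pluripotency factor Pou5f1 at 22336, against 3064 and 2678, while the neuronal tubulin Tubb3 was at 6070.5, 8907 and 2171, and the summed level of 7 neuronal markers was 14049.8, 17838 and 10498. Neuronal transcripts were thus present in all 3 D0 libraries, the third included. The first D3 library had the caudal progenitor factor T (brachyury) at 14602, against 933 and 706, with Tubb3 at 273, 5477 and 4967. The BMP target Msx2 was at 63.2, 1859.6 and 2917 in R6hr, labelled RA alone, and at 22.0, 1172 and 2213 in B6hr. R6hr replicates 2 and 3 thus held a BMP target near its B6hr level, against their label, and the first library of both groups was low. For the 33 genes, called changes from D0 to D3 or from D3 to R4 described below are also given with a lone library. It is the third D0 library or the first D3 library, alternatives chosen after these levels were seen. Such fits assume that the lone library varies like the other groups. Changes of the gene lists further below are given without these alternatives.

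From D0 to D3, 20 of the 33 genes were called, 11 higher and 9 lower, where 54.9% of all listed genes were called (30.9% higher, 24% lower). Along RA alone, 9 were called from D3 to R4 (24.3% of all genes), 8 from R4 to R5 (12.7%), 4 from R5 to R7 (11.2%) and 6 from R7 to R9 (20.3%). Against RA alone on the same day, M4 had 7, 3 higher and 4 lower (14.1% of all genes, 6.76% higher and 7.37% lower). M5 had 22, 7 higher and 15 lower (44.3%, 21% and 23.3%), M7 had 16, 3 higher and 13 lower (43.5%, 22.9% and 20.6%), and M9 had 13, 6 higher and 7 lower (51%, 27.5% and 23.5%). B5 had 4, all lower (5.99%; 3.23% of all genes were lower), B7 had 8, 3 higher and 5 lower (23.7%, 12.1% and 11.6%), and B9 had 9, 5 higher and 4 lower (11.8%, 6.12% and 5.71%). M over B gave 7 on day 5 (17.8%), 8 on day 7 (41.6%) and 15 on day 9 (51.5%). The median log2 change over the 33 genes was -0.541 in M5 over R5, beside -0.021 over all genes, and -0.270 in M7 over R7, beside 0.008. M9 over R9 had a median of -0.450, beside 0.037. In B7 over R7 it was -0.355, beside -0.008, and in B9 over R9 -0.248, beside -0.000. M4 over R4 had -0.036, beside -0.018, and B5 over R5 -0.020, beside -0.007. These comparisons share their R libraries. The difference between 2 effects was tested as well: M over R at 48 h against 24 h differed in 8 members (6.75% of all genes), B over R on day 9 against day 5 in 2 (2.11%), and M over R on day 9 against day 5 in 14 (38.9%). The map of log2 changes shows each of the 16 comparisons. Fgf10 was called in 10 of the 16, Fgfrl1 in 9, Dusp4 and Spred3 in 8 each, and Etv4 in 0. Such counts per gene were not made over all listed genes, so they rank the 33 genes only. Leaving out 1 library moved some of these counts by more than 1.5 times: R5 over R4 to 5 without R5 replicate 3, and R7 over R5 to 1 without R5 replicate 2 or 3 or R7 replicate 3 and to 2 without R7 replicate 1. R9 over R7 fell to 2 without R7 replicate 1 or R9 replicate 3, M4 over R4 to 2 without M4 replicate 2 or R4 replicate 3, and B9 over R9 to 5 without R9 replicate 2. B5 over R5 fell to 0 without B5 replicate 2 or R5 replicate 3, to 1 without R5 replicate 2 and to 2 without B5 replicate 1, and M5 over B5 to 4 without B5 replicate 3 or M5 replicate 2. Of the differences between effects, that of M over R at 48 h against 24 h fell to 5 without M4 replicate 3, M5 replicate 1 or R4 replicate 1, and that of B over R to 1 without B5 replicate 2 or 3, B9 replicate 3, R5 replicate 2 or R9 replicate 3. With the compared libraries alone, 41 of the 156 calls in the 16 comparisons ended, and with the replicate block added 58 ended. Below, such endings are noted at only some genes, so a call without that remark may have ended in these fits. Calls that ended in both include Fgf10 in R5 over R4 (adjusted p 0.059 to 0.15) and Dusp5 and Fgf9 in R4 over D3. Etv1, Fgf14 and Fgfr4 in M7 over R7 did so too.

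**Figure D1:**
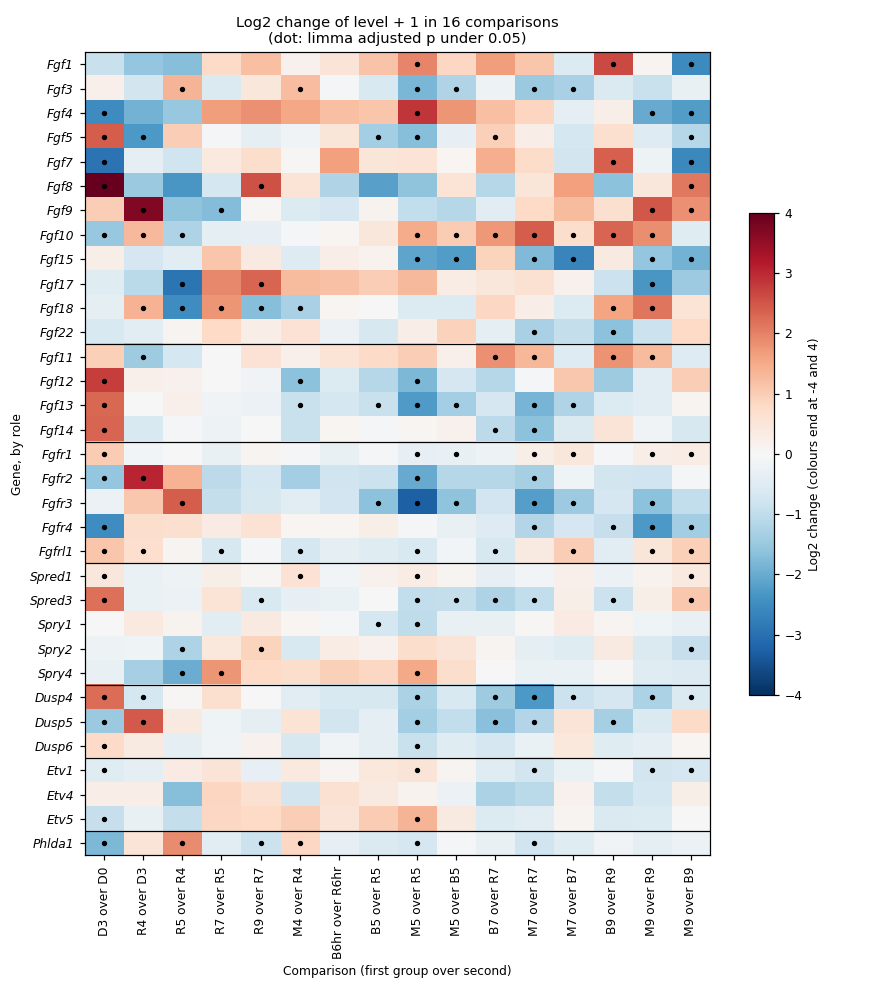
Log2 change of level + 1 for the 33 FGF genes (y axis, by role, lines between roles) in 16 comparisons (x axis, first group over second), with a dot where limma's adjusted p was under 0.05. The B6hr over R6hr column has 0 dots, M5 over R5 has 22, and Dusp4 is below 0 in every column from M4 over R4 to M9 over B9.

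Ligands of the caudal progenitor stage came first. Fgf8, the ligand of the caudal progenitor zone and the isthmus, lay at 1.52, 1.16 and 47.2 in the 3 D0 libraries and at 2158, 369 and 346 in D3. All 3 D3 libraries were above all 3 D0 libraries, and the first D3 library, the one with high T, stood above the other D3 libraries. Fgf8 rose from D0 to D3 (log2 change 6.67 ± 0.86 SE, adjusted p = 6.8e-08), by 3.76 with the third D0 library alone (adjusted p = 0.0027) and by 8.40 with the first D3 library alone (adjusted p = 6.3e-07). Under RA its levels were 156, 596 and 131 in R4, 201, 118 and 38.4 in R6hr, 61.0, 34.2 and 42.9 in R5 and 18.3, 36.8 and 29.6 in R7. None of the steps from D3 to R7 passed the test, although each R5 and R7 library lay below each D3 library. On day 5, B5 held 4.38, 10.7 and 15.9 and M5 8.24, 13.3 and 24.6, all below R5 but without a call. By day 9 it stood at 93.0, 202 and 235 in R9, 60.3, 39.7 and 57.6 in B9 and 247, 206 and 222 in M9. Every R9 and M9 library exceeded every B9 library. Fgf8 rose from R7 to R9 (log2 change 2.55 ± 0.86 SE, adjusted p = 0.033), a call that ended without R7 replicates 1 or 3 or R9 replicates 2 or 3 (adjusted p 0.06 to 0.12) and with quantile normalization (adjusted p = 0.076). It was also higher in M9 than in B9 (log2 change 2.10 ± 0.86 SE, adjusted p = 0.04), which ended without B9 replicates 1, 2 or 3 or M9 replicates 1, 2 or 3 (adjusted p 0.06 to 0.11) and with a pseudocount of 0.1 (adjusted p = 0.055). The summed level of 6 caudal progenitor markers, all listed and none at 0, was 98.6 to 338 in D0, 8887 to 45559 in D3, 1021 to 1629 in R7, 2228 to 3177 in R9, 1519 to 1903 in B9 and 916 to 1133 in M9. Every M9 library was below every B9 library in that sum and above it in Fgf8. The part of those cells in the Fgf8 levels was not tested.

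Fgf5, a marker of the primed epiblast, peaked at D3. Its levels were 23.2, 25.1 and 31.0 in D0, 127, 216 and 114 in D3 and 31.3, 20.5 and 37.2 in R4. The D3 libraries lay above all those of D0 and R4. It rose into D3 (log2 change 2.44 ± 0.35 SE, adjusted p = 4.9e-07; 2.20 with the third D0 and 2.24 with the first D3 library alone) and fell in the first 24 h of RA (log2 change -2.30 ± 0.35 SE, adjusted p = 7.3e-06; -2.11 with the first D3 library alone). On day 5 it was at 49.4, 71.6 and 53.8 in R5, 39.2, 18.6 and 13.8 in B5 and 20.9, 16.9 and 13.8 in M5, with no overlap of R5 with either BMP4 group. Fgf5 was lower in M5 than in R5 (log2 change -1.71 ± 0.35 SE, adjusted p = 0.00019) and lower in B5 (log2 change -1.37 ± 0.35 SE, adjusted p = 0.016), a call that ended without B5 replicates 2 or 3 or R5 replicates 2 or 3 (adjusted p 0.054 to 0.1). On day 7 the order was the other way, with 162, 87.7 and 88.7 in B7 and 70.7, 78.3 and 29.9 in R7, and B7 higher (log2 change 0.96 ± 0.35 SE, adjusted p = 0.043). That call ended without B7 replicate 1 or R7 replicate 3 (adjusted p 0.24 to 0.31) and with quantile normalization (adjusted p = 0.067). The effect of B over R differed between days 5 and 9 by 2.01 ± 0.49 SE, adjusted p = 0.021 (ended without B5 replicates 2 or 3 or B9 replicate 3 or R5 replicate 2 or R9 replicate 3 (adjusted p 0.065 to 0.082)). Fgf5 was lower in M9 (30.4 ± 6.03, SD, n = 3) than in B9 (68.5 ± 15.1; log2 change -1.15 ± 0.35 SE, adjusted p = 0.0074).

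Fgf4 and Fgf17 were highest in the third D0 library, the one with the largest sum of pluripotency markers. Fgf4, the mESC ligand, was at 453, 369.6 and 4264 in D0, 61.3, 209 and 299.6 in D3, 54.2, 33.4 and 38.5 in R4 and 27.3, 14.7 and 6.41 in R5. The third D0 library stood far above every other library of the study. Fgf4 fell from D0 to D3 (log2 change -2.51 ± 0.76 SE, adjusted p = 0.0057), with a log2 change of -4.76 for the third D0 library alone (adjusted p = 0.00014) and -3.85 for the first D3 library alone, and the call ended without D0 replicate 3 or D3 replicate 1 (adjusted p 0.06 to 0.12). Later levels were 152, 132 and 61.0 in M5, 145, 112 and 280.0 in R9, 115, 214 and 297 in B9 and 37.2, 23.2 and 75.4 in M9. Each M5 library exceeded each R5 library, and each M9 library lay below each R9 and B9 library. Fgf4 was higher in M5 than in R5 (log2 change 2.86 ± 0.76 SE, adjusted p = 0.0028). It was lower in M9 than in R9 (log2 change -2.01 ± 0.76 SE, adjusted p = 0.028; ended without M9 replicates 1 or 2 or R9 replicate 3 (adjusted p 0.064 to 0.13)) and than in B9 (log2 change -2.24 ± 0.76 SE, adjusted p = 0.015; ended without B9 replicate 3 or M9 replicate 2 (adjusted p 0.068 to 0.081)). The effect of M over R differed between days 9 and 5 by -4.87 ± 1.08 SE, adjusted p = 0.0007.

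The 7 pluripotency markers, all listed and none at 0, moved with Fgf4 in each of these comparisons. Their summed level was 14597 to 91384 in D0, 2855 to 7057 in D3, 472 to 1139 in R5 and 1763 to 4420.4 in M5. On day 9 it was 5540.2 to 10737 in R9, 4364 to 10364 in B9 and 772 to 1679 in M9. The part of such cells in the Fgf4 differences was not tested.

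Fgf17, of the same subfamily as Fgf8, was at 58.2, 39.5 and 1409.6 in D0, 88.6, 103 and 133 in D3 and 8.20, 6.57 and 3.33 in R5. It returned to 102, 101 and 189.6 in R9 and was at 27.8, 23.0 and 22.4 in M9. Every R9 library lay above every R5, R7 and M9 library. Fgf17 fell from R4 to R5 (log2 change -2.93 ± 0.72 SE, adjusted p = 0.007; ended without R5 replicate 3 (adjusted p = 0.056)) and rose from R7 to R9 (log2 change 2.32 ± 0.72 SE, adjusted p = 0.021). The rise ended without R7 replicate 1 or R9 replicate 3 (adjusted p 0.089 to 0.095) and with quantile normalization (adjusted p = 0.06). Fgf17 was lower in M9 than in R9 (log2 change -2.32 ± 0.72 SE, adjusted p = 0.0079), and this effect differed from that on day 5 by -3.61 ± 1.02 SE, adjusted p = 0.0056.

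**Figure D2:**
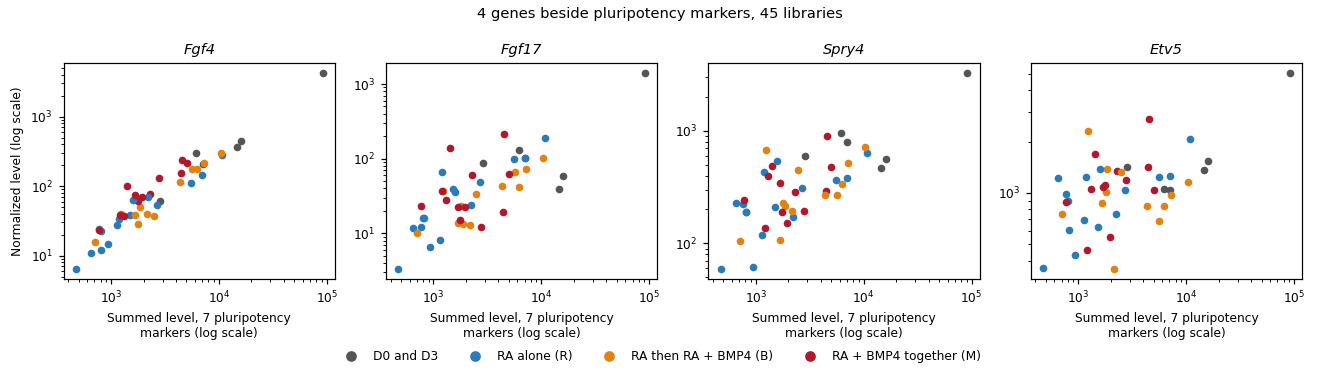
Normalized level of Fgf4, Fgf17, Spry4 and Etv5 (y axes, log scale) against the summed level of 7 pluripotency markers (x axes, log scale), 1 point per library, coloured by treatment. The third D0 library, with a marker sum of 91384 and Fgf4 at 4264, is the highest point in each panel.

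Fgf9, a mesenchymal growth ligand, was at 72.1, 5.05 and 23.4 in D3 and 265, 360.1 and 241 in R4, all R4 libraries being higher. It rose in the first 24 h of RA (log2 change 3.69 ± 0.58 SE, adjusted p = 1.4e-05), though with the first D3 library alone the change was 1.97 (adjusted p = 0.052). M4, with BMP4 present from the start, held 214, 99.8 and 348. Levels were then 84.6, 87.8 and 108 in R5 and 26.2, 42.4 and 17.9 in R7, and Fgf9 fell between these (log2 change -1.74 ± 0.58 SE, adjusted p = 0.05, just under the threshold before rounding). That call ended without R5 replicates 1, 2 or 3 or R7 replicates 1 or 3 (adjusted p 0.08 to 0.18), with a pseudocount of 0.1, with quantile normalization and with the replicate block (adjusted p = 0.054, 0.065 and 0.059). On day 9 Fgf9 was at 31.5, 48.0 and 14.7 in R9, 82.8, 33.2 and 32.4 in B9 and 98.3, 258 and 169.7 in M9, with every M9 library above all others. It was higher in M9 than in R9 (log2 change 2.48 ± 0.58 SE, adjusted p = 0.00075) and than in B9 (log2 change 1.84 ± 0.58 SE, adjusted p = 0.0098; ended without M9 replicate 2 (adjusted p = 0.064)). Between days 9 and 5 the effect of M over R differed by 3.47 ± 0.83 SE, adjusted p = 0.0014.

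Fgf18, a ligand of skeletal and lung development, rose and fell in turn along RA alone. Its levels were 56.6, 124 and 137 in D3, 189.7, 256 and 363 in R4, 39.0, 64.5 and 37.9 in R5, 185, 205 and 100.0 in R7 and 49.7, 43.6 and 49.7 in R9. Neighbouring groups did not overlap at any of these steps. The log2 changes were 1.39, -2.48, 1.75 and -1.69, with adjusted p = 0.0038, 1.6e-05, 0.0015 and 0.0012. The calls at these 4 steps held without each library in turn. With the compared libraries alone, without and with the replicate block, the adjusted p was 0.097 and 0.081 from D3 to R4, 0.023 and 0.067 from R4 to R5, 0.066 and 0.18 from R5 to R7 and 0.031 and 0.00096 from R7 to R9, so the calls into R4 and into R7 ended in both fits and that into R5 in the blocked one. With the first D3 library alone the first step was 2.18. In B9 it was at 152, 153 and 129 and in M9 at 154, 256 and 244, all above R9. Fgf18 was higher in B9 (log2 change 1.58 ± 0.35 SE, adjusted p = 0.0041) and in M9 (log2 change 2.14 ± 0.35 SE, adjusted p = 1e-05) than in R9. On day 4 the direction was the other way, with 117, 92.6 and 105 in M4 and a lower level than in R4 (log2 change -1.31 ± 0.35 SE, adjusted p = 0.011; ended without M4 replicate 2 or R4 replicate 3 (adjusted p 0.055 to 0.082)). The effect of M over R rose by 2.68 ± 0.50 SE, adjusted p = 0.00012, from day 5 to day 9.

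Fgf10, a mesenchymal ligand of limb and lung that acts on Fgfr2, was called in 5 of the 8 comparisons of a BMP4 group with RA alone, more than any other of the 33 genes. It was at 324, 314 and 186 in D0, 86.6, 110.2 and 84.8 in D3, 288, 185 and 231 in R4 and 74.7, 133 and 94.7 in R5. It fell to D3 (log2 change -1.51 ± 0.29 SE, adjusted p = 4.2e-05; -0.99 with the third D0 and -1.61 with the first D3 library alone), rose in R4 (log2 change 1.30 ± 0.29 SE, adjusted p = 0.00095; 1.40 with the first D3 library alone) and fell again in R5 (log2 change -1.23 ± 0.29 SE, adjusted p = 0.0047). On day 5, B5 was at 151, 116 and 143 and M5 at 207, 282 and 354, M5 being above every R5 and B5 library. M5 was higher than R5 (log2 change 1.48 ± 0.29 SE, adjusted p = 0.0001) and than B5 (log2 change 1.01 ± 0.29 SE, adjusted p = 0.013; ended without B5 replicate 2 or M5 replicate 3 (adjusted p 0.054 to 0.068)). The same treatment had no called effect at 24 h, where R4 and M4 (240.2, 182 and 262) overlapped, and the effects at 48 h and 24 h differed by 1.51 ± 0.41 SE, adjusted p = 0.02 (ended without R4 replicate 1 or R5 replicate 1 (adjusted p 0.059 to 0.065)). On day 7 the levels were 79.8, 96.0 and 53.3 in R7, 297, 186 and 276 in B7 and 339.7, 450.0 and 434 in M7. These groups did not overlap, in the order R7, B7, M7. Fgf10 was higher in B7 (log2 change 1.73 ± 0.29 SE, adjusted p = 8.9e-05) and in M7 (log2 change 2.43 ± 0.29 SE, adjusted p = 4e-08) than in R7. M7 was also higher than B7 (log2 change 0.70 ± 0.29 SE, adjusted p = 0.048), a call that ended without B7 replicates 2 or 3 or M7 replicates 2 or 3 (adjusted p 0.061 to 0.23) and with the replicate block (adjusted p = 0.053). On day 9, R9 was at 68.8, 66.3 and 44.9, B9 at 392, 267 and 254 and M9 at 143, 237 and 294. B9 (log2 change 2.32 ± 0.29 SE, adjusted p = 4e-06) and M9 (log2 change 1.85 ± 0.29 SE, adjusted p = 4.1e-06) were higher than R9 and overlapped each other. The effect of B over R was larger on day 9 than on day 5 by 1.86 ± 0.41 SE, adjusted p = 0.01. The 8 lateral and cardiac mesoderm markers, all listed and none at 0, summed to 755 to 972 in R7, 1361 to 2159.9 in B7 and 10541 to 15669 in M7. On day 9 they summed to 636 to 926 in R9, 1403 to 2464 in B9 and 5704 to 10878 in M9. The part of those cells in the Fgf10 levels was not tested.

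Fgf3, Fgf4 and Fgf15 are neighbours on chromosome 7 (chr7:144838083-144844436, chr7:144847367-144865243 and chr7:144896531-144900953, all on the plus strand, mm10, GENCODE M21). Fgf15, the mouse ortholog of human FGF19 and a ligand of the dorsal neural tube and gut, was lower with RA and BMP4 together. On day 5 it was at 205, 226 and 166 in R5, 268, 166 and 226 in B5 and 68.2, 16.7 and 78.8 in M5. On day 7 it was at 487, 508 and 313 in R7, 702, 738 and 946 in B7 and 78.7, 154 and 159 in M7. On day 9 it was at 625, 629 and 426 in R9, 819, 709.9 and 602 in B9 and 179.7, 164 and 231 in M9. Every M library on these days lay below every R and B library of its day. Fgf15 was lower in M5 (log2 change -2.11 ± 0.48 SE, adjusted p = 0.00068), M7 (log2 change -1.77 ± 0.48 SE, adjusted p = 0.0034) and M9 (log2 change -1.53 ± 0.48 SE, adjusted p = 0.009) than in RA alone, with calls that held without each library; that in M7 ended with the compared libraries alone and the replicate block (adjusted p = 0.055). The differences from B were -2.24, -2.65 and -1.89 on days 5, 7 and 9 (adjusted p = 0.0013, 6e-05 and 0.0019).

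Fgf3, a ligand of hindbrain, inner ear and tail bud, changed its response between 24 and 48 h. It was at 20.1, 50.8 and 22.5 in R4 and 50.8, 84.0 and 74.2 in M4, then at 126, 43.8 and 73.8 in R5, 43.5, 46.1 and 54.7 in B5 and 26.0, 19.1 and 16.3 in M5. The highest R4 library was level with the lowest M4 library, while every M5 library lay below every R5 and B5 library. Fgf3 was higher in M4 than in R4 (log2 change 1.23 ± 0.40 SE, adjusted p = 0.033; ended without M4 replicates 2 or 3 or R4 replicates 1 or 3 (adjusted p 0.082 to 0.16)) and lower in M5 than in R5 (log2 change -1.83 ± 0.40 SE, adjusted p = 0.00035). The effects at 48 h and 24 h differed by -3.06 ± 0.56 SE, adjusted p = 0.00075. On day 7, M7 held 13.3, 15.5 and 23.5, below every R7 (45.4, 32.9 and 82.1) and B7 library. It was lower than R7 (log2 change -1.50 ± 0.40 SE, adjusted p = 0.0025) and B7 (log2 change -1.31 ± 0.40 SE, adjusted p = 0.0089). Thus Fgf3 and Fgf15 were lower in M5 than in R5 while Fgf4, which lies between them, was higher. The step from R4 to R5 in Fgf3 (1.35, adjusted p = 0.022) ended without R4 replicates 1 or 3 or R5 replicates 1 or 3 (adjusted p 0.077 to 0.13), and the difference of M5 from B5 (-1.21, adjusted p = 0.03) ended without B5 replicates 2 or 3 or M5 replicates 2 or 3 (adjusted p 0.056 to 0.12) and with quantile normalization (adjusted p = 0.058).

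Fgf1 and Fgf7 were highest after day 3 in the sequential group on day 9. Fgf1 (acidic FGF, a ligand without a signal peptide) was at 26.8, 21.4 and 21.4 in R9, 97.5, 185 and 185 in B9 and 16.6, 23.3 and 40.0 in M9. Fgf7 (keratinocyte growth factor) was at 6.46, 4.07 and 4.48 in R9, 23.5, 35.7 and 31.3 in B9 and 5.26, 2.10 and 5.95 in M9. For both genes the 3 B9 libraries lay above all R9 and M9 libraries. Fgf1 was higher in B9 than in R9 (log2 change 2.65 ± 0.63 SE, adjusted p = 0.006) and lower in M9 than in B9 (log2 change -2.54 ± 0.63 SE, adjusted p = 0.0014). Fgf7 was likewise higher in B9 than in R9 (log2 change 2.38 ± 0.61 SE, adjusted p = 0.01; ended without R9 replicate 2 (adjusted p = 0.051)) and lower in M9 than in B9 (log2 change -2.58 ± 0.61 SE, adjusted p = 0.0009). The 7 neuronal markers, all listed and none at 0, summed to 5785 to 11925 in R9, 15124 to 18647 in B9 and 2026 to 3403 in M9, and to 36493 to 50708 in B7, where Fgf1 was at 43.2, 26.6 and 29.4. The part of neurons in these levels was not tested. Fgf7 also fell from 39.7, 50.5 and 52.5 in D0 to 1.02, 4.97 and 18.7 in D3 (log2 change -2.96 ± 0.61 SE, adjusted p = 0.00011; -3.11 with the third D0 and -4.58 with the first D3 library alone), and Fgf1 was higher in M5 (44.1, 22.1 and 11.8) than in R5 (5.08, 5.89 and 4.47; log2 change 1.96 ± 0.63 SE, adjusted p = 0.011; ended without M5 replicate 1 (adjusted p = 0.09)). Fgf22, a ligand at synapses, stayed between 0.857 and 20.4 in all libraries, and it was lower in M7 (log2 change -1.31 ± 0.48 SE, adjusted p = 0.027; ended without M7 replicates 2 or 3 or R7 replicate 3 (adjusted p 0.054 to 0.15)) and in B9 (log2 change -1.65 ± 0.48 SE, adjusted p = 0.023; ended without B9 replicates 1 or 3 or R9 replicates 2 or 3 (adjusted p 0.053 to 0.11)) than in RA alone.

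**Figure D3:**
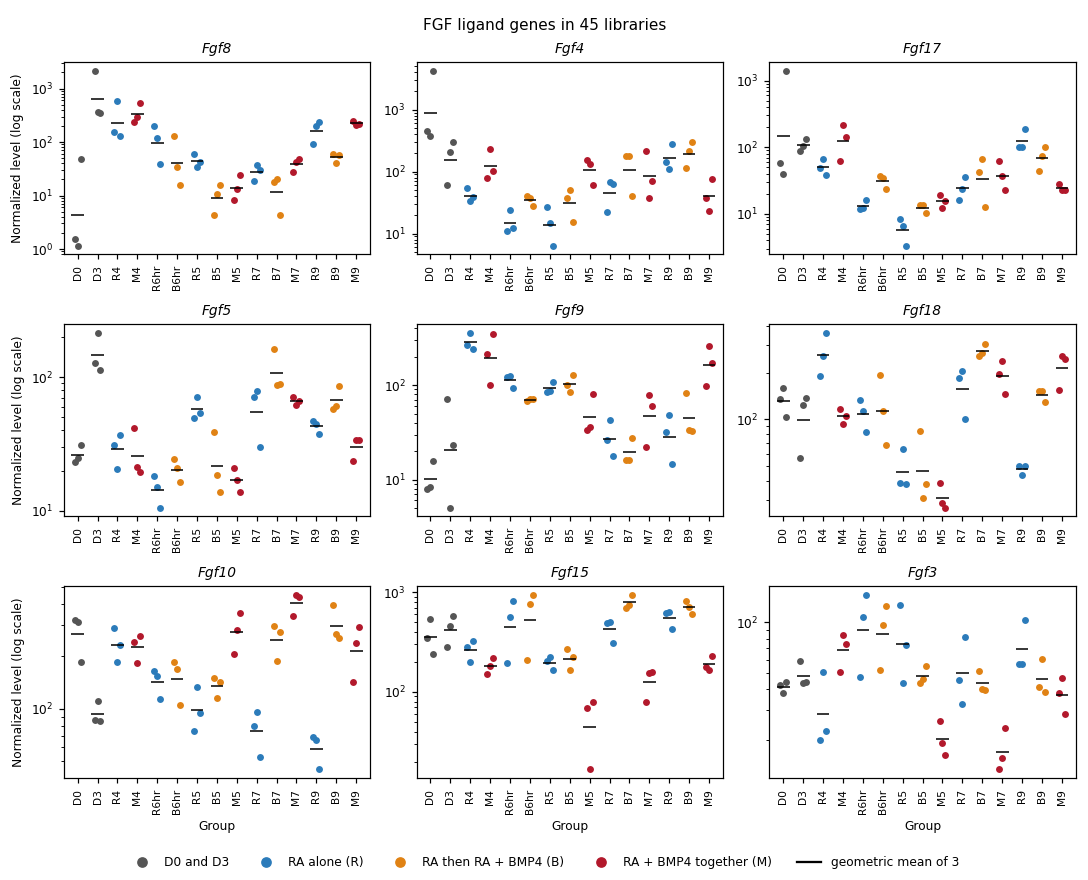
Normalized levels of 9 ligand genes (y axes, log scale) in the 15 groups (x axes), 1 point per library, coloured by treatment, with a line at the geometric mean of 3. Fgf8 is highest in D3, Fgf10 separates R7 and R9 from the BMP4 groups of the same days, and Fgf15 is lowest in M5.

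The 4 intracellular FGF homologous factors are not secreted and bind voltage-gated sodium channels. Fgf13 was the one most often called, in 7 of 16 comparisons. It rose from 130.3, 84.0 and 106 in D0 to 878, 393 and 418 in D3 (log2 change 2.31 ± 0.25 SE, adjusted p = 2.5e-09; 2.30 with the third D0 and 3.05 with the first D3 library alone). On day 5 it was at 625, 501 and 662 in R5, 262, 277 and 437 in B5 and 98.4, 119 and 158 in M5. The groups did not overlap and stood in the order R5, B5, M5. Fgf13 was lower in M5 than in R5 (log2 change -2.26 ± 0.25 SE, adjusted p = 1.4e-08) and than in B5 (log2 change -1.36 ± 0.25 SE, adjusted p = 0.00023), and lower in B5 than in R5 (log2 change -0.90 ± 0.25 SE, adjusted p = 0.028). The last call ended without B5 replicates 1 or 2 or R5 replicates 1 or 3 (adjusted p 0.068 to 0.16) and with quantile normalization (adjusted p = 0.055). On day 7, R7 was at 466, 562 and 597, B7 at 302, 371 and 354 and M7 at 102, 164 and 198, with M7 below both others. M7 was lower than R7 (log2 change -1.85 ± 0.25 SE, adjusted p = 4.5e-07) and B7 (log2 change -1.19 ± 0.25 SE, adjusted p = 0.00033). At 24 h M4 (292, 221 and 323) was lower than R4 (493, 619.9 and 444; log2 change -0.90 ± 0.25 SE, adjusted p = 0.013; ended without M4 replicate 2 or R4 replicate 2 (adjusted p 0.074 to 0.1)), and the effect at 48 h differed from it by -1.36 ± 0.35 SE, adjusted p = 0.016 (ended without M4 replicate 3 or M5 replicate 1 (adjusted p 0.055 to 0.059)). By day 9 M9 (398, 302 and 315) was not called against R9 (417, 528 and 439), and the effect of M over R differed from that on day 5 by 1.81 ± 0.35 SE, adjusted p = 0.0002.

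Fgf11 went the other way on days 7 and 9. It was at 114, 75.1 and 39.0 in R7, 256, 218 and 284 in B7 and 154, 171 and 203 in M7, and at 135, 106 and 77.7 in R9, 331, 375 and 386 in B9 and 217, 245 and 301 in M9. All B and M libraries of each day lay above the R libraries. Fgf11 was higher in B7 (log2 change 1.84 ± 0.45 SE, adjusted p = 0.0045), M7 (log2 change 1.32 ± 0.45 SE, adjusted p = 0.017), B9 (log2 change 1.80 ± 0.45 SE, adjusted p = 0.0089) and M9 (log2 change 1.27 ± 0.45 SE, adjusted p = 0.019) than in RA alone. The call in M7 ended without M7 replicate 3 or R7 replicate 3 (adjusted p 0.056 to 0.14), that in B9 without R9 replicate 3 (adjusted p = 0.054) and that in M9 without M9 replicate 3 or R9 replicate 3 (adjusted p 0.064 to 0.085). The neuronal marker sums were 3897 to 17771 in R7, 36493 to 50708 in B7 and 1593 to 5289 in M7, and the part of neurons in the Fgf11 levels was not tested. Its fall from D3 to R4 (-1.42, adjusted p = 0.019) depended on the D3 libraries used, and ended without D3 replicates 2 or 3 or R4 replicate 2 (adjusted p 0.13 to 0.25). D3 was at 131, 489 and 478, high in the libraries with high Tubb3, and with the first D3 library alone the change was -0.17 (adjusted p = 0.9).

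Fgf12 and Fgf14 rose into D3 from low levels. Fgf12 was at 8.70, 21.5 and 9.11 in D0 and 58.3, 128 and 92.7 in D3 (log2 change 2.78 ± 0.50 SE, adjusted p = 1.7e-05), and Fgf14 at 6.57, 3.45 and 8.88 and 50.2, 28.4 and 27.8 (log2 change 2.34 ± 0.38 SE, adjusted p = 3.7e-06). D0 and D3 did not overlap for either gene. For Fgf12 the change was 3.15 with the third D0 and 2.19 with the first D3 library alone, and for Fgf14 1.83 with the third D0 and 2.88 with the first D3 library alone. Fgf12 was lower in M5 (24.1, 31.9 and 46.9) than in R5 (67.9, 128 and 182; log2 change -1.79 ± 0.50 SE, adjusted p = 0.0041) and lower in M4 than in R4 (log2 change -1.65 ± 0.50 SE, adjusted p = 0.022; ended without M4 replicate 2 or R4 replicates 1 or 3 (adjusted p 0.065 to 0.22)). Fgf14 was lower in M7 (1.88, 7.59 and 8.83) than in R7 (18.3, 12.8 and 26.3; log2 change -1.63 ± 0.38 SE, adjusted p = 0.00074) and in B7 (8.57, 9.78 and 6.98; log2 change -1.05 ± 0.38 SE, adjusted p = 0.043). The B7 call ended without B7 replicates 1, 2 or 3 or R7 replicates 1 or 3 (adjusted p 0.06 to 0.19) and with a pseudocount of 0.1 (adjusted p = 0.054).

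Among the receptors, Fgfr2 and Fgfr3 rose under RA and were lower in M5 and M7 than in RA alone. Fgfr2, whose isoforms bind the Fgf7 and Fgf10 subfamily or the Fgf8 and Fgf4 subfamilies, was at 564, 446 and 384 in D3, 3769.8, 3268 and 4495 in R4, 5356, 6094 and 4786 in R6hr and 6848, 10498 and 13605 in R5. Each of these groups lay above the one before. The first step passed the test (log2 change 3.05 ± 0.50 SE, adjusted p = 2.3e-05), also with the first D3 library alone (2.75, adjusted p = 0.011). M4 (2503, 771 and 1666) lay below every R4 library, without a call (adjusted p = 0.065). In M5 it was at 1780.0, 2309 and 3712 and in B5 at 5780.1, 3235 and 8932, with every M5 library below every R5 library. Fgfr2 was lower in M5 than in R5 (log2 change -2.0 ± 0.50 SE, adjusted p = 0.0016), and lower in M7 (1014, 2328 and 3089.6) than in R7 (5687, 6653 and 2993; log2 change -1.32 ± 0.50 SE, adjusted p = 0.032; ended without M7 replicate 1 or R7 replicates 1 or 2 (adjusted p 0.095 to 0.22)), where 1 library of each overlapped. The fall from D0 to D3 (-1.55, adjusted p = 0.0093) rested on D0 replicates 1 and 2: D0 was at 2142, 2286 and 493, and with the third alone the change was -0.10 (adjusted p = 0.91), and with the first D3 library alone -1.25 (adjusted p = 0.16).

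Fgfr3, the receptor of ventricular zone progenitors and cartilage, was at 508, 425 and 527 in R4 and 1803, 2569 and 3899.8 in R5 and rose over that day (log2 change 2.43 ± 0.46 SE, adjusted p = 0.00071). On day 5 it was at 928, 494 and 1312 in B5 and 211, 261 and 378 in M5. The groups stood in the order R5, B5, M5 without overlap. Fgfr3 was lower in M5 than in R5 (log2 change -3.25 ± 0.46 SE, adjusted p = 1.3e-06) and than in B5 (log2 change -1.61 ± 0.46 SE, adjusted p = 0.014; ended without B5 replicate 3 or M5 replicates 1 or 2 (adjusted p 0.052 to 0.11)), and lower in B5 than in R5 (log2 change -1.64 ± 0.46 SE, adjusted p = 0.031; ended without B5 replicates 1 or 2 or R5 replicates 2 or 3 (adjusted p 0.069 to 0.24)). On day 7 R7 was at 1635, 1700.1 and 910.4, B7 at 580.3, 776 and 1147 and M7 at 138, 362 and 503, M7 being lowest. M7 was lower than R7 (log2 change -2.22 ± 0.46 SE, adjusted p = 0.00024) and B7 (log2 change -1.45 ± 0.46 SE, adjusted p = 0.013; ended without B7 replicate 3 or M7 replicate 1 (adjusted p 0.071 to 0.13)), and M9 (251, 311 and 282) was lower than R9 (1015, 1137 and 591; log2 change -1.65 ± 0.46 SE, adjusted p = 0.0039). At 24 h R4 and M4 (571, 211 and 393) overlapped, and the effects at 48 h and 24 h differed by -2.83 ± 0.66 SE, adjusted p = 0.0068.

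Neural progenitor markers were, like both receptors, lower in M5 and M7 than in RA alone. At 24 h their sum was lower in M4 than in R4, where neither receptor was called and Fgfr3 overlapped. The 6 markers, all listed and none at 0, summed to 14394 to 19788 in R4, 2973 to 4896 in M4, 22139 to 30826 in R5, 10255 to 15246 in B5 and 2269.6 to 4114 in M5. On day 7 they summed to 24766 to 28706 in R7, 15986 to 19944 in B7 and 4041 to 6649 in M7. On day 9 they summed to 17720 to 20159 in R9 and 4990 to 5383 in M9, where Fgfr3 was lower and Fgfr2 was not called. The part of neural progenitors in the receptor levels was not tested.

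Fgfr1, the receptor of the early embryo and of mesoderm, had the narrowest range of these receptor genes, with group means from 4467 ± 389 in D0 to 9764 ± 720.4 in R6hr (SD, n = 3). It rose from 4611, 4764 and 4027 in D0 to 10777, 8623 and 8105 in D3 (log2 change 1.03 ± 0.10 SE, adjusted p = 1.3e-10; 1.18 with the third D0 and 1.27 with the first D3 library alone). All D3 libraries lay above all of D0. M5 (6089.7, 6422 and 7260.3) was lower than R5 (8295, 8123 and 8568; log2 change -0.34 ± 0.10 SE, adjusted p = 0.0048), a call that ended with quantile normalization (adjusted p = 0.069). M9 (9095, 8796 and 8789) was higher than R9 (7743, 7764 and 6889; log2 change 0.25 ± 0.10 SE, adjusted p = 0.029), a call that ended without M9 replicates 1 or 2 or R9 replicate 3 (adjusted p 0.057 to 0.14) and with quantile normalization (adjusted p = 0.57). The effect of M over R differed between days 9 and 5 by 0.60 ± 0.14 SE, adjusted p = 0.0011 (with quantile normalization adjusted p = 0.098). M9 was also higher than B9 (log2 change 0.31 ± 0.10 SE, adjusted p = 0.0092; with quantile normalization adjusted p = 0.58), and M7 higher than B7 (log2 change 0.45 ± 0.10 SE, adjusted p = 0.00043).

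Fgfr4, a receptor of muscle and endoderm, was at 248, 325 and 130.1 in D0 and 40.0, 33.5 and 43.2 in D3 and fell between them (log2 change -2.47 ± 0.28 SE, adjusted p = 6.8e-09; -1.72 with the third D0 and -2.42 with the first D3 library alone). It was at 173, 204 and 208 in R9, 114, 90.9 and 106 in B9 and 32.9, 26.9 and 67.0 in M9. These groups did not overlap and stood in that order. Fgfr4 was lower in M9 than in R9 (log2 change -2.29 ± 0.28 SE, adjusted p = 8.5e-08) and than in B9 (log2 change -1.38 ± 0.28 SE, adjusted p = 0.0002), and lower in B9 than in R9 (log2 change -0.91 ± 0.28 SE, adjusted p = 0.032; ended without B9 replicates 1, 2 or 3 or R9 replicates 2 or 3 (adjusted p 0.058 to 0.11)). M7 (35.7, 66.5 and 77.3) was lower than R7 (108, 112 and 175; log2 change -1.16 ± 0.28 SE, adjusted p = 0.0011), whereas M5 (101, 98.6 and 93.6) and R5 (102, 95.9 and 106) overlapped. The effect of M over R changed from day 5 to day 9 by -2.23 ± 0.40 SE, adjusted p = 6.5e-05.

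Fgfrl1, a receptor-like protein without a kinase domain, was at 419, 464 and 365 in D0 and 971, 800.1 and 950.4 in D3 (log2 change 1.12 ± 0.18 SE, adjusted p = 1.9e-06; 1.31 with the third D0 and 1.23 with the first D3 library alone) and reached 1289, 1367 and 1695 in R4 (log2 change 0.67 ± 0.18 SE, adjusted p = 0.0045). These 3 groups rose without overlap, although with the first D3 library alone the step to R4 was 0.57 (adjusted p = 0.15). Its response to the combined treatment turned with time. M4 (951, 690.3 and 1079.6) was lower than R4 (log2 change -0.69 ± 0.18 SE, adjusted p = 0.0062; ended without M4 replicate 2 or R4 replicate 3 (adjusted p 0.056 to 0.09)) and M5 (857, 1026 and 1223) was lower than R5 (1352, 1594 and 1752; log2 change -0.60 ± 0.18 SE, adjusted p = 0.0055; ended without M5 replicate 1 (adjusted p = 0.053)). M9 (1183, 1590.3 and 1330.2) was higher than R9 (1021, 1066 and 816; log2 change 0.50 ± 0.18 SE, adjusted p = 0.018; ended without M9 replicate 2 or R9 replicate 3 (adjusted p = 0.11)) and than B9 (794, 691 and 627; log2 change 0.95 ± 0.18 SE, adjusted p = 5.8e-05). Between days 9 and 5 the effect of M over R differed by 1.10 ± 0.25 SE, adjusted p = 0.00082. B7 (625, 642 and 679.6) was lower than R7 (1015, 1232 and 803; log2 change -0.63 ± 0.18 SE, adjusted p = 0.011; ended without R7 replicate 2 (adjusted p = 0.072)), and M7 (1036, 1487 and 1409) was higher than B7 (log2 change 1.00 ± 0.18 SE, adjusted p = 3.7e-05). Among the windows printed above, that of Fgfrl1 was the one with the ETS core.

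**Figure D4:**
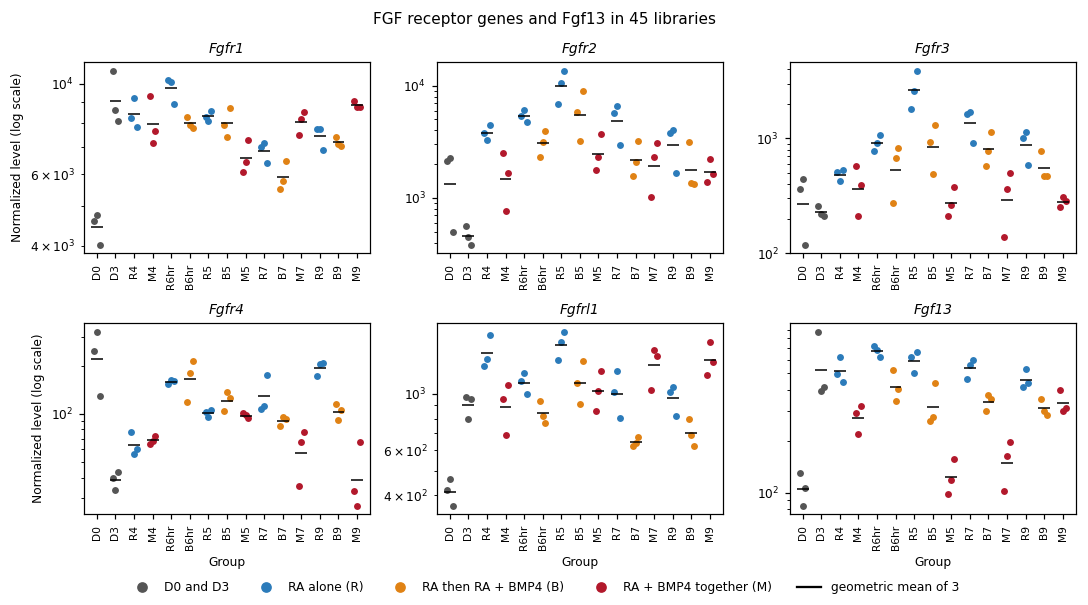
Normalized levels of the 5 receptor genes and Fgf13 (y axes, log scale) in the 15 groups (x axes), 1 point per library, coloured by treatment, with a line at the geometric mean of 3. Fgfr2 and Fgfr3 peak in R5, and Fgf13 is lowest after day 0 in M5 and M7.

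The sprouty and Spred genes encode inhibitors of signalling from receptor tyrosine kinases to ERK. Spry2 and Spry4 fell during RA and returned later. Spry2 was at 1529.6, 1370.2 and 4315 in D0, 1701, 1731 and 1968 in D3, 1621, 1683 and 1533 in R4 and 797, 712 and 555 in R5. The third D0 library was again the highest, and each R5 library lay below each R4 library. Spry2 fell from R4 to R5 (log2 change -1.24 ± 0.29 SE, adjusted p = 0.0046). It reached 1459, 1544 and 2172 in R9 from 837, 813 and 1121 in R7 (log2 change 0.89 ± 0.29 SE, adjusted p = 0.027), a call that ended without R7 replicates 1 or 2 or R9 replicate 3 (adjusted p 0.087 to 0.14). B9 held 1649, 2322 and 2661 and M9 1274, 979 and 1199, with M9 lower (log2 change -0.92 ± 0.29 SE, adjusted p = 0.0091; ended without B9 replicate 3 (adjusted p = 0.054)). The effect of M over R on Spry2 differed between days 5 and 4 by 1.30 ± 0.41 SE, adjusted p = 0.049. That call ended without each of the 12 libraries other than M4 replicate 2 and R5 replicate 1 (adjusted p 0.051 to 0.14). It also ended with the replicate block over all libraries (adjusted p = 0.061). Between days 9 and 5 the effect differed by -1.26 ± 0.41 SE, adjusted p = 0.015 (ended without R9 replicate 3 (adjusted p = 0.052)).

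Spry4 was at 562, 468 and 3254 in D0, 594, 786 and 958 in D3, 309, 426 and 211 in R4, 119, 62.0 and 59.2 in R5 and 190.2, 171 and 533 in R7. R5 lay below all of these groups. It fell from R4 to R5 (log2 change -1.98 ± 0.56 SE, adjusted p = 0.018; ended without R4 replicates 1 or 2 or R5 replicates 2 or 3 (adjusted p 0.057 to 0.094)) and rose from R5 to R7 (log2 change 1.76 ± 0.56 SE, adjusted p = 0.037; ended without R5 replicates 2 or 3 or R7 replicates 1 or 3 (adjusted p 0.051 to 0.22) and with quantile normalization, adjusted p = 0.08). M5 (289, 193 and 192) was higher than R5 (log2 change 1.53 ± 0.56 SE, adjusted p = 0.026; ended without M5 replicate 1 or R5 replicates 2 or 3 (adjusted p 0.082 to 0.1)), and this effect differed from that on day 9 by -2.01 ± 0.79 SE, adjusted p = 0.043 (day 9 over day 5). The last call ended without M5 replicates 1 or 2 or M9 replicates 2 or 3 or R5 replicates 2 or 3 or R9 replicates 1 or 3 (adjusted p 0.05 to 0.11). Quantile normalization and the replicate block over all libraries ended it too (adjusted p = 0.064 and 0.051). Spry4 was highest in the third D0 library, the one with the largest pluripotency marker sum.

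Spry1 moved on day 5. It was at 804, 989 and 899 in R5, 632, 527 and 486 in B5 and 433, 412 and 497 in M5, with R5 above both BMP4 groups. Spry1 was lower in M5 (log2 change -1.0 ± 0.18 SE, adjusted p = 3.6e-05) and in B5 (log2 change -0.71 ± 0.18 SE, adjusted p = 0.015; ended without B5 replicate 2 or R5 replicates 2 or 3 (adjusted p 0.065 to 0.077)). At 24 h R4 (786, 798 and 868) and M4 (956, 753 and 869.9) overlapped, and the effects differed by -1.07 ± 0.25 SE, adjusted p = 0.0084. On day 9 they overlapped again, and the effect differed from that on day 5 by 0.82 ± 0.25 SE, adjusted p = 0.011.

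Spred3 rose into D3, from 162, 192 and 284 in D0 to 1128, 869.6 and 878 in D3 (log2 change 2.19 ± 0.20 SE, adjusted p = 9.8e-11). With the third D0 library alone the change was 1.74 and with the first D3 library alone 2.44. It was lower in M5 (295, 319.6 and 427) than in R5 (712, 601 and 725; log2 change -0.98 ± 0.20 SE, adjusted p = 0.00023) and B5 (622, 651 and 735; log2 change -0.96 ± 0.20 SE, adjusted p = 0.0011), while R5 and B5 overlapped. On day 7 R7 was at 927, 958 and 1063, B7 at 467, 409.6 and 374 and M7 at 451, 527 and 495, and both BMP4 groups lay below R7. Spred3 was lower in B7 (log2 change -1.24 ± 0.20 SE, adjusted p = 8e-05) and M7 (log2 change -1.0 ± 0.20 SE, adjusted p = 0.00018). On day 9 B9 (389, 377 and 315) was lower than R9 (727, 645 and 572; log2 change -0.84 ± 0.20 SE, adjusted p = 0.0069) and M9 (741, 853 and 707) was higher than B9 (log2 change 1.09 ± 0.20 SE, adjusted p = 7.4e-05). The effect of M over R differed between days 9 and 5 by 1.23 ± 0.29 SE, adjusted p = 0.0013. Spred1 was at 2959, 3458 and 2404 in R4 and 4135, 4552 and 4420.4 in M4, higher in M4 (log2 change 0.59 ± 0.13 SE, adjusted p = 0.0014), and it was the single member of the 7 called in that comparison whose call held without each library. It ended with the compared libraries alone (adjusted p = 0.086 and 0.11 without and with the replicate block), as did the other 6 calls of that comparison. Spred1 was also higher in M9 (3452, 3258 and 3299) than in B9 (2612, 2491 and 2556; log2 change 0.39 ± 0.13 SE, adjusted p = 0.011; adjusted p = 0.11 with quantile normalization).

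The 3 phosphatases differed in how they followed the stages. Dusp4, a nuclear phosphatase of ERK and of stress kinases, was at 949.9, 758 and 1724 in D0 and 6831, 4038 and 4857 in D3 and rose between them (log2 change 2.25 ± 0.24 SE, adjusted p = 1.8e-09; 1.57 with the third D0 and 2.67 with the first D3 library alone). It was then lower in R4 (2921, 3895 and 2738; log2 change -0.70 ± 0.24 SE, adjusted p = 0.03; -1.12 with the first D3 library alone; ended without D3 replicates 1 or 3 or R4 replicates 1 or 3 (adjusted p 0.058 to 0.14)). In RA alone it stood at 3188, 2859 and 3659 in R5, 4649, 5142 and 5209 in R7 and 4685, 5191 and 4805 in R9. The BMP4 groups lay below RA alone on each of these days, at 1816, 1816 and 2674 in B5, 1118, 1331 and 1635 in M5, 1443, 2138 and 2124 in B7, 730.3, 1336 and 1108 in M7, 3051, 3021 and 3186 in B9 and 2164, 1831 and 2188 in M9. Dusp4 was lower in M5 (log2 change -1.26 ± 0.24 SE, adjusted p = 7.8e-05), B7 (log2 change -1.42 ± 0.24 SE, adjusted p = 0.00011), M7 (log2 change -2.28 ± 0.24 SE, adjusted p = 4.4e-09) and M9 (log2 change -1.25 ± 0.24 SE, adjusted p = 7.2e-05) than in RA alone, and not called in B5 or B9 (adjusted p = 0.11 and 0.066). M was lower than B on day 7 (log2 change -0.87 ± 0.24 SE, adjusted p = 0.0045; ended without M7 replicate 1 (adjusted p = 0.053)) and on day 9 (log2 change -0.59 ± 0.24 SE, adjusted p = 0.04; ended without B9 replicates 1, 2 or 3 or M9 replicates 1, 2 or 3 (adjusted p 0.054 to 0.13)).

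Dusp5, a nuclear phosphatase specific to ERK, was at 311, 71.0 and 73.7 in D3, 606, 961 and 473 in R4 and 1229.8, 1434 and 1964 in R6hr. It rose in the first 24 h of RA (log2 change 2.46 ± 0.36 SE, adjusted p = 5e-06), but the first D3 library differed from the others, and with it alone the change was 1.06 (adjusted p = 0.077). Its fall from D0 (346, 381 and 268) to D3 (log2 change -1.47 ± 0.36 SE, adjusted p = 0.00091) became -0.08 (adjusted p = 0.89) with the first D3 library alone and -1.18 (adjusted p = 0.064) with the third D0 library alone. It was called lower in 4 of the 6 BMP4 groups from day 5 on. M5 (287, 299.9 and 422) lay below R5 (1086, 703 and 786; log2 change -1.35 ± 0.36 SE, adjusted p = 0.0031), while B5 (514, 609.8 and 909.8) overlapped R5 and was not called (adjusted p = 0.63). B7 (205, 240.1 and 254) and M7 (296, 417 and 298) lay below R7 (720.5, 686 and 854). The day 7 changes were -1.69 in B7 (adjusted p = 0.0015) and -1.17 in M7 (adjusted p = 0.009). On day 9 M9 (314, 551 and 347) overlapped R9 and was not called (adjusted p = 0.19), and B9 (310.2, 189.8 and 209.7) was lower than R9 (599, 674 and 485; log2 change -1.33 ± 0.36 SE, adjusted p = 0.016; ended without B9 replicates 2 or 3 or R9 replicate 2 (adjusted p 0.059 to 0.077)). At 24 h, by contrast, M4 (936, 737 and 1210.1) overlapped R4, and the effects at 48 h and 24 h differed by -1.88 ± 0.51 SE, adjusted p = 0.022 (ended without M4 replicate 3 or M5 replicates 1 or 2 or R4 replicates 1 or 3 or R5 replicate 1 (adjusted p 0.051 to 0.072)).

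Dusp6, a cytoplasmic ERK phosphatase and a common readout of FGF activity, changed least among the 3, with group means from 1762 ± 108 in M5 to 4246 ± 1209 in R4 (SD, n = 3). It was called in 2 comparisons, higher in D3 (4469.6, 2707 and 2736) than in D0 (1611, 1481 and 2906; log2 change 0.75 ± 0.26 SE, adjusted p = 0.013) and lower in M5 (1747, 1662 and 1877) than in R5 (4337, 2957 and 2676; log2 change -0.88 ± 0.26 SE, adjusted p = 0.0056). D0 and D3 overlapped through the third D0 library, and with that library alone the change was 0.14 (adjusted p = 0.75), against 1.23 with the first D3 library alone (adjusted p = 0.0047). The first call ended without D0 replicates 1 or 2 or D3 replicate 1 (adjusted p 0.067 to 0.12) and the second without R5 replicate 1 (adjusted p = 0.052). Its printed window held neither searched motif.

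The ETS factors of the PEA3 group, Etv1, Etv4 and Etv5, are transcribed in response to ERK. Etv4 varied widely within groups. It was at 879, 719 and 4357 in D0, 2866, 1141 and 1452 in D3, 1887, 3670.4 and 1221 in R4, 5966, 2042 and 1269.8 in B6hr, 1238, 433 and 452 in R5, 708, 710.4 and 2797 in R7 and 1403, 882 and 964 in M9. Single libraries of D0, R4, B6hr and R7 stood above the others of their group, and limma called 0 of the 16 comparisons, with 1 at an unadjusted p under 0.05. The Etv5 window held 3 octamers, of a form added after it was seen. Etv5 was at 1538, 1371 and 5065 in D0, 1410.5, 1034 and 1047 in D3, 696, 433 and 361 in R5, 873, 1384 and 755 in B5 and 1419, 1197 and 1105 in M5. Every M5 library exceeded every R5 library. Etv5 was higher in M5 than in R5 (log2 change 1.37 ± 0.40 SE, adjusted p = 0.0064), and this effect differed from that on day 9 by -1.93 ± 0.57 SE, adjusted p = 0.0083 (day 9 over day 5). Its fall from D0 to D3 (log2 change -0.94 ± 0.40 SE, adjusted p = 0.049) ended without D0 replicate 3 or D3 replicates 2 or 3 (adjusted p 0.11 to 0.5) and with the replicate block over all libraries (adjusted p = 0.055), and was -0.64 with the first D3 library alone (adjusted p = 0.38) and -2.14 with the third D0 library alone.

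Etv1 had a narrow range and turned between days 5 and 7. It was at 203, 203 and 186 in R5, 245, 279 and 326 in M5, 256, 269 and 319 in R7, 218, 135 and 159 in M7, 219, 229 and 219.7 in R9 and 143, 103 and 157 in M9. M lay above R on day 5 and below it on days 7 and 9 without overlap. Etv1 was higher in M5 (log2 change 0.51 ± 0.20 SE, adjusted p = 0.038; ended without M5 replicates 2 or 3 or R5 replicates 1, 2 or 3 (adjusted p 0.06 to 0.15)) and lower in M7 (log2 change -0.74 ± 0.20 SE, adjusted p = 0.0032) and M9 (log2 change -0.75 ± 0.20 SE, adjusted p = 0.0025). The effects on days 9 and 5 differed by -1.26 ± 0.28 SE, adjusted p = 0.00082. Thus in M5 over R5, Etv5, Etv1, Spry4 and Spred1 were higher while Dusp4, Dusp5, Dusp6, Spry1, Spred3 and Phlda1 were lower. The feedback genes therefore did not change in 1 direction. The Spred1 call (log2 change 0.31) ended without M5 replicates 1, 2 or 3 or R5 replicates 2 or 3 (adjusted p 0.074 to 0.15). With the replicate block over all libraries it ended too (adjusted p = 0.053). The pluripotency marker sum, 472 to 1139 in R5 and 1763 to 4420.4 in M5, was higher in M5 as well, and the neural progenitor sum, 22139 to 30826 and 2269.6 to 4114, was lower. The part of either in these feedback genes was not tested.

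Phlda1, a pleckstrin homology-like domain protein, was called in 6 of the 16 comparisons. It was at 2312, 2508 and 967 in D0, 495, 536 and 494 in D3, 689, 981 and 567 in R4, 2546, 2622 and 2841 in R5, 1858, 1875 and 2134 in R7 and 1045, 1154 and 1035 in R9. It fell into D3 (log2 change -1.80 ± 0.21 SE, adjusted p = 7.6e-09), by less with the third D0 library alone (-0.93, adjusted p = 0.00038) and by 1.84 with the first D3 library alone. It rose from R4 to R5 (log2 change 1.88 ± 0.21 SE, adjusted p = 3e-07) and fell from R7 to R9 (log2 change -0.86 ± 0.21 SE, adjusted p = 0.0039). M4 (1287, 1297 and 1281) was higher than R4 (log2 change 0.83 ± 0.21 SE, adjusted p = 0.0056; ended without R4 replicate 3 (adjusted p = 0.064)), and M5 (1702, 1748 and 1583) was lower than R5 (log2 change -0.67 ± 0.21 SE, adjusted p = 0.0089). Neither pair overlapped, and the effects at 48 h and 24 h differed by -1.50 ± 0.29 SE, adjusted p = 0.0014. M7 (1093, 1155 and 1126) was lower than R7 (log2 change -0.80 ± 0.21 SE, adjusted p = 0.0022).

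**Figure D5:**
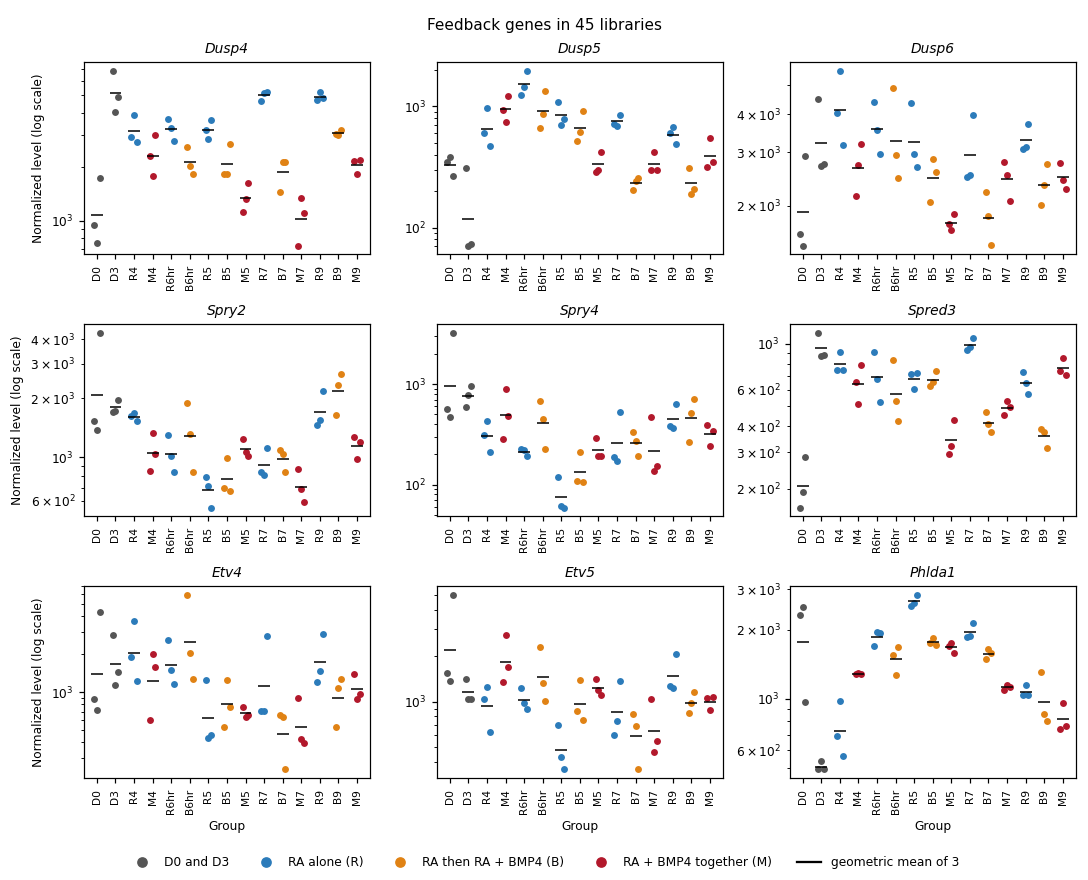
Normalized levels of 9 feedback genes (y axes, log scale) in the 15 groups (x axes), 1 point per library, coloured by treatment, with a line at the geometric mean of 3. Dusp4 is higher in R7 and R9 than in the BMP4 groups of those days, Phlda1 peaks in R5, and Etv4 spreads widely within groups.

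After 6 h of BMP4, 0 of the 33 genes were called in B6hr over R6hr by limma in the fit of all libraries (0.0178% of all genes), and 5 had an unadjusted p under 0.05. By the authors' deposited table, 0 of them had a false discovery rate under 0.05 (0.107% of all genes), the lowest rate being 0.19, for Fgf7. In this comparison and in R9 over R7 the deviations of same-numbered libraries from their group means all correlated above 0.1. The fit of the compared libraries with the replicate number as a block is therefore given too. It called 14 of the 33 in B6hr over R6hr, 5 higher and 9 lower, where 25.9% of all genes were called (10.6% higher, 15.3% lower). Dusp4 was at 3705, 3299.5 and 2795 in R6hr and 2563, 2031 and 1815 in B6hr, and Dusp5 at 1229.8, 1434 and 1964 and 657, 856 and 1337. In that fit Dusp4 fell by 0.62 on the log2 scale (adjusted p = 0.00042), Dusp5 fell by 0.73 (adjusted p = 0.00059) and Fgf13 fell by 0.69 (adjusted p = 0.0027). Fgf8 was at 201, 118 and 38.4 in R6hr and 131, 33.8 and 15.5 in B6hr, and each B6hr library was lower than the R6hr library of its number. Fgf8 fell by 1.22 on the log2 scale (adjusted p = 0.0087). Higher in that fit were Fgf7, Fgf4, Fgf17, Spry4 and Etv5, with log2 changes of 1.63, 1.19, 1.16, 0.94 and 0.50 (adjusted p = 0.018, 0.024, 0.03, 0.038 and 0.035). The pluripotency marker sum was 649.5 to 802 in R6hr and 1230.5 to 2478 in B6hr, without overlap, and its part in the rise of Fgf4 was not tested. Given the Msx2 levels of these groups, the comparison is one of libraries as labelled. From R7 to R9 the blocked fit of those libraries called 15 members (35.6% of all genes) in place of 6, and the added ones were Fgfr2, Fgfr3, Etv5, Spry1, Spry4, Fgf15, Fgf4, Fgfr4 and Fgf1. Pairing is not shown there, since differently numbered libraries of R7 and R9 correlated up to 0.497, above the lowest same-number value of 0.323.

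Genes that work with FGF ligands and receptors were followed as lists. Of 30 heparan sulfate proteoglycans and their enzymes 25 were listed, and 16 of these (64%) changed from D0 to D3, as did 54.9% of all genes (12 higher, 4 lower, median log2 change 0.500 beside 0.071 for all genes). In M7 over R7 10 were higher and 4 lower (56% beside 43.5% of all genes, median 0.473 beside 0.008). In M9 over R9 12 were higher and 1 lower, a share near that of all genes (52% beside 51%, median 0.396 beside 0.037). Hs3st3b1, a heparan sulfate sulfotransferase, was higher in M7 (log2 change 1.62 ± 0.16 SE, adjusted p = 1.5e-09) and M9 (log2 change 1.63 ± 0.16 SE, adjusted p = 1.6e-09), and so was Sdc1 (syndecan 1; log2 change 0.47 ± 0.10 SE, adjusted p = 0.00036 and log2 change 1.23 ± 0.10 SE, adjusted p = 5.5e-11). In M5 over R5, 3 were higher and 6 lower (36% beside 44.3% of all genes, median -0.232 beside -0.021), with Hs6st2 and Hs6st1, which add 6-O-sulfate, among the lower ones (-1.81 and -1.17). Of 13 klotho and other FGF-binding proteins 11 were listed, and 6 changed from D0 to D3 (4 higher, 2 lower), 54.5% beside 54.9% of all genes. Among them Il17rd (SEF, an FGF antagonist) rose by 2.75 and the FGF carrier Fgfbp3 by 4.83 on the log2 scale. In M5 over R5, 0 were higher and 4 lower (36.4% beside 44.3% of all genes), and the carriers Fgfbp1 and Fgfbp3 were among these (log2 change -3.61 ± 0.55 SE, adjusted p = 3.2e-06 and log2 change -3.13 ± 0.52 SE, adjusted p = 1.2e-05).

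Of 27 adaptors and kinases of the ERK cascade 20 were listed, and 13 changed in M5 over R5 (3 higher, 10 lower, 65% beside 44.3% of all genes, median -0.162 beside -0.021). In M7 over R7 12 changed (4 higher, 8 lower, 60% beside 43.5%), and in M9 over R9 13 (7 higher, 6 lower, 65% beside 51%, median 0.131 beside 0.037). The adaptor Shc1 was higher in M5 (log2 change 1.20 ± 0.14 SE, adjusted p = 4.5e-08), and its relative Shc3, a neuronal adaptor, was lower (log2 change -2.55 ± 0.48 SE, adjusted p = 5.8e-05). Of the 9 other dual specificity phosphatases, 6 changed in M5 over R5 (66.7% beside 44.3% of all genes), with Dusp9 higher (log2 change 1.67 ± 0.17 SE, adjusted p = 4e-09) and Dusp3 and Dusp14 lower (-1.28 and -1.11). Of 22 ERK response genes, 10 changed from D3 to R4 (2 higher, 8 lower, 45.5% beside 24.3% of all genes, median -0.493 beside -0.007), the lower ones including Egr3 (log2 change -2.55 ± 0.43 SE, adjusted p = 3.2e-05) and the higher ones Myc (2.30). In M5 over R5, 4 of them changed (2 higher, 2 lower, 18.2% beside 44.3% of all genes). M7 over R7 had 7 (6 higher, 1 lower, 31.8% beside 43.5%). In M9 over R9, 12 of them changed (6 higher, 6 lower), a share near that of all genes (54.5% beside 51%). Fos (log2 change -4.77 ± 0.65 SE, adjusted p = 4.3e-07) and Ier2 (-1.28) were among the 6 lower ones, and the 6 higher ones are not named here. Of 16 caudal progenitor genes under FGF and WNT 14 were listed, and 13 rose from D0 to D3 (92.9% beside 54.9% of all genes changed, median 6.168 beside 0.071) and 0 fell. From D3 to R4 1 rose and 5 fell (42.9% beside 24.3%), where Wnt3a fell by 5.22 on the log2 scale and Cyp26a1, the enzyme that degrades RA, rose by 2.54.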

How the data were processed

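The deposited table lists 11220 genes in 45 libraries of poly(A)-selected RNA. Its levels are a normalized signal made by the authors, with no statement of unit or scaling in the sources used here. They are not whole numbers apart from 1 value, so read depth is unknown and a count test was not used. The table also holds the authors' deposited log2 fold changes and false discovery rates (adjusted p-values). Picard, edgeR and the mm10 build are named in the submitters' processing notes, with no role; which aligner and counter were used is not given in these sources.

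Groups and replicate numbers come from the sample titles. For the RA interval 2 label fields disagree by 1 day, and sampling days were taken from titles. The members and gene lists were chosen with earlier results of these data known. Levels were taken as log2(level + 1), with a filter of level 1 in 3 libraries that removed 0 genes, and 1 limma fit (version 3.58.1, R 4.3.3) of all 45 libraries gave 16 comparisons with Benjamini-Hochberg adjustment over 11220 genes. All groups entered the fit so that they share 1 estimate of spread. The scripts were tested on simulated data. Figures and summaries used Python 3.11.15, pandas 2.3.3 and matplotlib 3.10.9.

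Members whose groups did not overlap, up to 4 per role and comparison with the largest change, were to be given in every library, and other members given so were chosen after their values were seen. Of the gene lists, up to 3 risen and 3 fallen genes with the smallest adjusted p could be named per comparison. The alternatives were other pseudocounts, filters, scaling and models, and leaving out each library. The differences between 2 effects and their alternatives, the fits with 1 D0 or D3 library, and the comparison with the authors' rates were added after seeing the data. Gene coordinates are from GENCODE M21 (mm10), and promoter windows are from RefSeq (GRCm38.p6).

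Replicate numbers were checked for pairing by correlating the deviations of same-numbered libraries from their group means. In 2 of 16 comparisons every same-number correlation exceeded 0.1: B6hr over R6hr (0.586, 0.189 and 0.465) and R9 over R7 (0.506, 0.323 and 0.736). The highest correlation between differently numbered libraries was 0.146 in B6hr over R6hr. In R9 over R7 it was 0.497, above the lowest same-number value, so pairing is not shown there.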

Additional observations from a re-analysis of the deposited data

Results flagged for a closer look

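The values here are differences between the effects of the same treatment contrast at 2 times, tested in the fit of all libraries by limma with adjustment over all genes, and each passed an adjusted p under 0.05. From 24 h to 48 h of RA with BMP4, the effect over RA alone differed in 8 of the 33 genes (6.75% of all genes). It was lower at 48 h for Phlda1 (-1.50), Fgfr3 (-2.83), Spry1 (-1.07), Dusp5 (-1.88), Fgf13 (-1.36) and Fgf3 (-3.06), and higher for Spry2 (1.30) and Fgf10 (1.51).

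Between days 5 and 9 the effect of BMP4 in the second 24 h differed in 2 genes (2.11% of all genes), Fgf10 (1.86) and Fgf5 (2.01), both higher on day 9.

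Between days 5 and 9 the effect of BMP4 over the whole 48 h differed in 14 of the 33 genes, a share near that of all genes (38.9%). It was higher on day 9 for Fgfr1 (0.60), Fgfrl1 (1.10), Spry1 (0.82), Spred3 (1.23), Fgf13 (1.81), Fgf18 (2.68) and Fgf9 (3.47). It was lower on day 9 for Spry2 (-1.26), Etv5 (-1.93), Spry4 (-2.01), Etv1 (-1.26), Fgf4 (-4.87), Fgfr4 (-2.23) and Fgf17 (-3.61). Of these 24 calls, 7 ended when 1 library was left out: Dusp5, Fgf10, Fgf13 and Spry2 in the first set, Fgf5 in the second and Spry2 and Spry4 in the third. Each difference uses 4 groups of 3 libraries, and M5 and R5 enter both the first and the third set.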

How the results depend on the processing

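No call changed direction under any alternative fitted. Of the alternative values of the 156 called gene results in the 16 comparisons, 1918 kept the call and 315 lost it, and of those of the 24 called differences between 2 effects, 434 kept it and 46 lost it. The number of members called moved by more than 1.5 times as follows. With the compared libraries alone and no block, it was 13 in D3 over D0, 0 in R7 over R5 and M4 over R4, 1 in B6hr over R6hr and B5 over R5, 10 in M7 over R7 and 20 in M9 over R9. With the compared libraries alone and the replicate block, it was 1 in R4 over D3, 0 in R5 over R4, R7 over R5, M4 over R4, B5 over R5 and B7 over R7, 6 in M7 over R7, 18 in M7 over B7 and B9 over R9, 14 in B6hr over R6hr and 15 in R9 over R7. Outside the last 2, not every same-number correlation exceeded 0.1, so the pairing there is a number only. In R9 over R7 pairing is not shown either, since differently numbered libraries correlated up to 0.497. The replicate block over all libraries moved none of the 16 counts by that much. For the differences between effects, the compared libraries alone with the block gave 4 members for M over R at 48 h against 24 h and 0 for B over R on day 9 against day 5, where quantile normalization gave 4. Quantile normalization gave 14 in R4 over D3 and shifted the median of all genes by more than 0.1 in D3 over D0 alone (-0.12).

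Leaving out each library in turn gave 17 to 19 members in D3 over D0, 8 to 10 in R4 over D3, 5 to 9 in R5 over R4, 1 to 4 in R7 over R5 and 2 to 6 in R9 over R7. Against RA alone it gave 2 to 8 in M4, 0 to 5 in B5, 18 to 21 in M5, 6 to 7 in B7, 13 to 16 in M7, 5 to 9 in B9, 9 to 13 in M9 and 0 to 0 in B6hr. M over B gave 4 to 7 on day 5, 7 to 8 on day 7 and 10 to 15 on day 9. For the differences between effects it gave 5 to 9 for M over R at 48 h against 24 h, 1 to 3 for B over R and 12 to 16 for M over R on day 9 against day 5. With the third D0 library alone D3 over D0 had 21 members called, and with the first D3 library alone 19, with 6 in R4 over D3. Read depth is unknown, so no limit from counting error can be given for the low genes, and 3 libraries per group limit the precision.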
